A study of Mus musculus with 3 samples.

Results

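The secreted Wnt modulators Sfrp1, Sfrp2, Frzb, Dkk3 and Wif1 were followed in RNA of mouse left ventricle. They were found by gene symbol, and 5 of 5 were measured, among 15503 genes in the deposited tables. The genes were chosen by their FPKM in these same 3 libraries, so each level and ratio given for them is a description. The unit is FPKM, a fragment number scaled to transcript length and to the fragments mapped in the library, which allows levels to be compared between genes.

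The libraries came from C57BL6J mice of 3 genotypes, labelled Egln1/Hif2aTie2Cre, Egln1Tie2Cre and Egln1 floxed. Each library was made from 1 pool, which joined the RNA of 3 animals of a genotype. The Tie2 promoter drives Cre recombinase in endothelium, and blood-forming cells use it as well. Egln1 encodes PHD2, the oxygen-sensing hydroxylase that marks hypoxia-inducible factors for degradation, and Hif2a is the factor encoded by Epas1. The floxed mice, which the design text calls wild type, carry the conditional Egln1 allele without a labelled Cre, and age is not given in the sources used here. With 1 library per genotype there was no replicate, no standard error and no test, and the read depth is unknown. A lower value in whole ventricle can mean fewer cells of a type or less RNA per cell, and these cannot be told apart.

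The targeted genes gave a mixed check of the labels. Egln1 stood at 129.0 FPKM in the library labelled Egln1/Hif2aTie2Cre, 95.7 FPKM in the Egln1Tie2Cre library and 129.5 FPKM in the floxed library, so the first of these went against the Egln1 part of its label. Epas1 stood at 54.5, 65.0 and 77.4 FPKM in the same order. Both genes are transcribed in cells that Tie2Cre does not reach, so these levels are a weak check, and directions that involve the library labelled Egln1/Hif2aTie2Cre rest on its label. Ventricular identity was clear in each library, with Myl2, the ventricular myosin light chain, at 15211, 19883 and 10992 FPKM.

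Wnt proteins are secreted lipid-modified signals that bind Frizzled receptors. Binding together with the co-receptors Lrp5 and Lrp6 stabilises beta-catenin, and other Wnt pathways do not use beta-catenin. Sfrp1, Sfrp2 and Frzb (also called Sfrp3) are secreted proteins with a cysteine-rich domain like that of Frizzled and can bind Wnt proteins outside the cell. Wif1 binds Wnt proteins through a domain of its own, and Dkk3 is the divergent member of the Dickkopf family, whose effect on Wnt signalling depends on the cell. In the heart such factors are made largely by fibroblasts and other stromal cells, and several are known for changing in injury and fibrosis.

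The genes lie on separate chromosomes. In GENCODE M21 (GRCm38, which may differ from the build the authors used), Sfrp1 lies on chromosome 8, 23411502 to 23449632, plus strand. Sfrp2 lies on chromosome 3, 83766321 to 83774316, plus strand, and Frzb on chromosome 2, 80411970 to 80447625, minus strand. Dkk3 lies on chromosome 7, 112116017 to 112159057, minus strand, and Wif1 on chromosome 10, 121033960 to 121100650, plus strand. All 5 are protein-coding, with 3 to 10 exons in the longest transcript. Like sequence was sought in the same orientation only. No transcript of a gene outside the measured genes listed in this report matched any of them over 100 bases at 90% identity. The 5 genes were not searched against each other or against the other listed genes with an FPKM, such as Sfrp5. Reads shared among those are thus not excluded. Sfrp2 overlaps Gm26771, an antisense RNA on the minus strand with 0.358, 0.261 and 0.150 FPKM in the libraries in the order above. Whether the counting used strand is not given, so Sfrp2 and Gm26771 may share reads.

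The promoters of Frzb, Sfrp2 and Wif1 are shown, the 3 of the 5 genes that matched a RefSeq entry, so that their letters can be set beside the levels given next. The windows run from 250 bases before to 50 bases after the RefSeq start (GRCm38.p6). Capitals mark ACGTG and GCGTG, core letters of the element bound by hypoxia-inducible factors, and CTTTGA and CTTTGT, core letters of sites of the TCF/LEF factors that act with beta-catenin. Each was sought on both strands, and ACGTG overlaps its own reverse complement where the letters form a palindrome.
Frzb, chr2:80447347-80447646, minus strand: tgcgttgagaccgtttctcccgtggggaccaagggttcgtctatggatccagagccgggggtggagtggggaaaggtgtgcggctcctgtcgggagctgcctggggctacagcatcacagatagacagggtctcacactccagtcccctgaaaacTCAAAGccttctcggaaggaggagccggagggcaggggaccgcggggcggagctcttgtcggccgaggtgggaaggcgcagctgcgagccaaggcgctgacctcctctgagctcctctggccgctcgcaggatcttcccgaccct
Sfrp2, chr3:83766071-83766370, plus strand: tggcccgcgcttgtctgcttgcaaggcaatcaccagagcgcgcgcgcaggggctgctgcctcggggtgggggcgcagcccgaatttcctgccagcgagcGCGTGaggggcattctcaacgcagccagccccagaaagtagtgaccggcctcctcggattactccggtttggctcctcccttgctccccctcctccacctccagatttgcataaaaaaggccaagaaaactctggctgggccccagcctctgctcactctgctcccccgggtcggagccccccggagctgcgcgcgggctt
Wif1, chr10:121033754-121034053, plus strand: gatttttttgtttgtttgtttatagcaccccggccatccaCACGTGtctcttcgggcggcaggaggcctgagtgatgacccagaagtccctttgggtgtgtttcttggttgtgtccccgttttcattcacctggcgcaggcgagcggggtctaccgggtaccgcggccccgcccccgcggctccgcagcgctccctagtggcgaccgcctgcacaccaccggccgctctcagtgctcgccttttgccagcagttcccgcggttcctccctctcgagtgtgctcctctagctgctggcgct

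The windows of Frzb and Sfrp2 held 1 match each, CTTTGA on the reverse strand in Frzb and GCGTG in Sfrp2. The GENCODE model of Frzb begins at 80447625 on the minus strand, upstream of the RefSeq start used for the window. Most of the Frzb window and its match thus lie inside that gene model. The window of Wif1 held ACGTG on both strands at 1 palindrome. Of 32851 RefSeq promoter windows of the same length, 19.6% held ACGTG, 32.4% GCGTG, 16.0% CTTTGA and 18.7% CTTTGT, so each of these matches is common. GC content was 64.7% in the Frzb window, 66.0% in that of Sfrp2 and 63.0% in that of Wif1. A match in letters is not a binding site.

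Dkk3 and Frzb stood highest in the Egln1Tie2Cre library. Dkk3 had 3.83 FPKM in the library labelled Egln1/Hif2aTie2Cre, 9.07 FPKM in the Egln1Tie2Cre library and 2.65 FPKM in the floxed library. Frzb had 2.11 FPKM, 6.29 FPKM and 2.52 FPKM in the same libraries in that order. The Egln1Tie2Cre library thus held the most of both genes, and the other libraries differed from each other by 1.45-fold for Dkk3 and by 1.19-fold for Frzb. The direction of that smaller gap was opposite, since Dkk3 was above and Frzb below the floxed level in the library labelled Egln1/Hif2aTie2Cre.

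The Sfrp genes had another order. Sfrp2 had 2.64 FPKM in the library labelled Egln1/Hif2aTie2Cre, 1.53 FPKM in the Egln1Tie2Cre library and 1.11 FPKM in the floxed library. Sfrp1 had 4.21 FPKM, 4.05 FPKM and 3.18 FPKM in that order. Both were thus highest in the library labelled Egln1/Hif2aTie2Cre, but for Sfrp1 that library and the Egln1Tie2Cre library were within 1.04-fold, and their order turned round when each library was divided by its total FPKM (log2 ratio -0.26). Wif1 was the sole gene of the 5 with its lowest level in the Egln1Tie2Cre library, at 0.852 FPKM there against 1.73 FPKM in the library labelled Egln1/Hif2aTie2Cre and 1.52 FPKM in the floxed library.

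**Figure D1:**
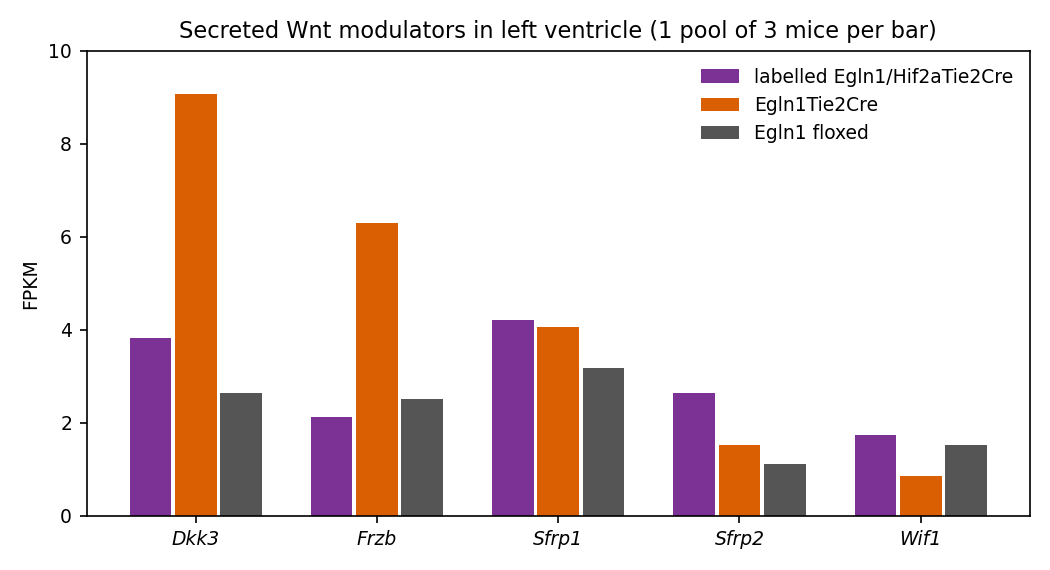
FPKM of each secreted Wnt modulator (linear axis from 0) in the 3 pooled libraries, 1 bar per library and no error bar because each genotype has 1 library. Dkk3 (9.07 FPKM) and Frzb (6.29 FPKM) are the tallest bars and both belong to the Egln1Tie2Cre library.

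These were genes of low to middling abundance. Among the 14897 genes with an FPKM in all 3 libraries, Dkk3 lay above 42.6% of genes in the library labelled Egln1/Hif2aTie2Cre, 61.7% in the Egln1Tie2Cre library and 35.1% in the floxed library. Wif1 lay above 28.3%, 19.1% and 26.2% in that order. The order of the genes by level also differed between libraries. In the floxed library it ran Sfrp1, Dkk3, Frzb, Wif1, Sfrp2, and the 2.52 to 3.18 FPKM of the first 3 genes could not be ranked against any replicate spread. In the Egln1Tie2Cre library it ran Dkk3, Frzb, Sfrp1, Sfrp2, Wif1. In the library labelled Egln1/Hif2aTie2Cre it ran Sfrp1, Dkk3, Sfrp2, Frzb, Wif1.

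The summed FPKM of the 5 genes was 14.5 in the library labelled Egln1/Hif2aTie2Cre, 21.8 in the Egln1Tie2Cre library and 11.0 in the floxed library. The sum was 1.99-fold higher in the Egln1Tie2Cre library than in the floxed library. Dkk3 alone made up 26.4% of the sum in the library labelled Egln1/Hif2aTie2Cre, 41.6% in the Egln1Tie2Cre library and 24.1% in the floxed library. The share of Wif1 was 11.9%, 3.91% and 13.8% in that order. Dkk3 and Frzb together led the sum in the Egln1Tie2Cre library, whereas Sfrp1 was the highest gene in the other libraries.

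The first comparison set the Egln1Tie2Cre library against the floxed library. The study's title concerns hypertrophy and fibrosis of the heart after loss of PHD2 in endothelium, and this pair addresses that loss. A gene was counted as apart when its log2 ratio of FPKM + 1 reached 1 in size (2-fold) and its mean over the pair reached 1 FPKM, a filter that all 5 genes passed. The added 1 makes the ratio smaller than the plain fold for genes at this level. Dkk3 and Frzb were apart, both higher, which is 2 of 5, beside 7.77% of the 11978 genes kept (3.93% higher). Among kept genes with a mean FPKM of at most 10 the share was 6.43%, and on plain FPKM ratios the members' count was again 2, beside 10.8% of all genes kept. Since the genes were picked with this contrast in view, that share is given for scale alone. Dkk3 was 3.42-fold higher (log2 ratio of FPKM + 1, 1.46) and Frzb was 2.50-fold higher (1.05), and Frzb was only just past the limit. Sfrp2 was 1.38-fold higher (0.26), Sfrp1 1.27-fold higher (0.27) and Wif1 1.78-fold lower (-0.44), all short of the limit. The median log2 ratio was 0.27 over the 5 genes and 0.02 over all genes kept.

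The second comparison set the library labelled Egln1/Hif2aTie2Cre against the Egln1Tie2Cre library. It shares the Egln1Tie2Cre library with the first, so a high value there enters both. Again 2 of 5 genes were apart, Frzb and Dkk3, both lower, beside 8.38% of the 11999 genes kept (4.08% lower) and 6.62% of those with a mean FPKM of at most 10. Frzb was 2.98-fold lower (log2 ratio -1.23) and Dkk3 2.37-fold lower (-1.06). Sfrp2 was 1.72-fold higher (0.52) and Wif1 2.03-fold higher (0.56), and neither was apart once 1 was added to both FPKM values. On plain FPKM ratios Wif1 did pass 2-fold, which made 3 of 5, beside 11.6% of all genes kept. Sfrp1 was 1.04-fold higher (0.04), a direction that division by library totals turned round, as given above. The median was 0.04 over the 5 genes and -0.02 over all genes kept.

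The third comparison set the library labelled Egln1/Hif2aTie2Cre against the floxed library, and 0 of 5 genes were apart, beside 0.976% of the 11888 genes kept and 1.1% of those with a mean FPKM of at most 10. The greatest ratio belonged to Sfrp2, which was 2.38-fold higher as plain FPKM and had a log2 ratio of 0.79 with the added 1. Dkk3 was 1.45-fold higher (0.40), Sfrp1 1.32-fold higher (0.32) and Wif1 1.14-fold higher (0.12, but -0.067 after division by library totals), while Frzb was 1.19-fold lower (-0.18). The median was 0.32 over the 5 genes and -0.0038 over all genes kept. On plain FPKM ratios with no added value, Sfrp2 passed 2-fold, as did 2.87% of all genes kept.

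**Figure D2:**
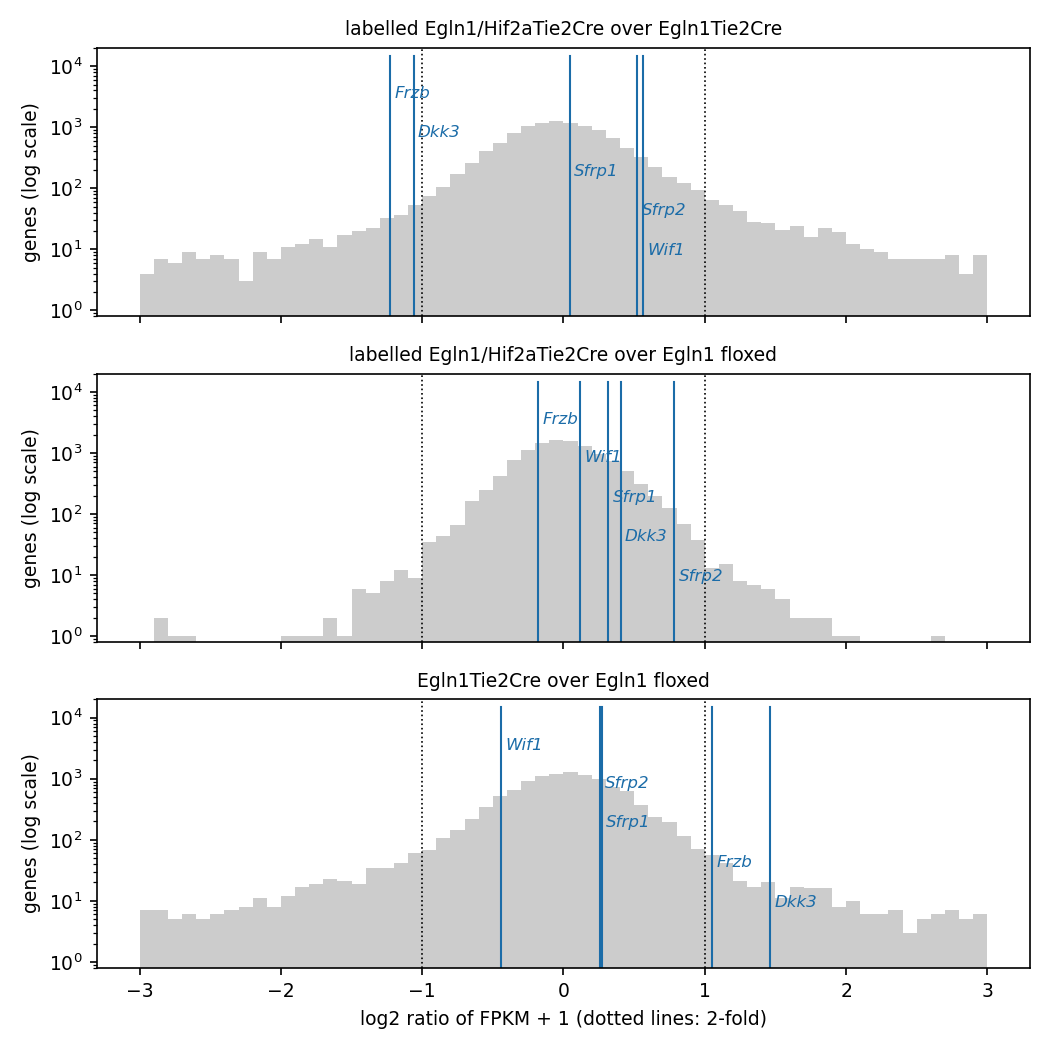
Number of genes (log scale) by log2 ratio of FPKM + 1 for the 3 comparisons, with a blue line at each secreted Wnt modulator, dotted lines at 2-fold, and genes beyond -3 or 3 not drawn. Dkk3 and Frzb lie outside the dotted lines in both comparisons that use the Egln1Tie2Cre library, and the distribution is narrower where that library is absent.

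In the authors' deposited tables, which compare pairs of pooled libraries and not genotypes, the q-value of each of the 5 genes was 0.9996 in each comparison. Those tables listed 85, 2 and 69 genes at a q-value of at most 0.05 for the library labelled Egln1/Hif2aTie2Cre over Egln1Tie2Cre, for the same library over floxed, and for Egln1Tie2Cre over floxed. The differences of Dkk3 and Frzb were thus not among those that passed in the authors' deposited tables.

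Genes of nearest pattern were sought by the distance between pairs of log2 ratios of FPKM + 1 over the floxed library, among 10983 named genes whose mean FPKM reached 1. The measure rests on 3 libraries and says nothing of shared function or control. Nearest to Dkk3 was Eln, which encodes elastin, with 15.8 FPKM in the library labelled Egln1/Hif2aTie2Cre, 33.0 FPKM in the Egln1Tie2Cre library and 11.5 FPKM in the floxed library (distance 0.028). Hn1 (0.056) and Ntan1 (0.080), which removes amide groups from protein ends, came next, and Ntan1 overlaps a coding gene. Nearest to Frzb were Has3, a hyaluronan synthase (0.031), Fam198b (0.042) and Cd247, a T cell receptor chain (0.062). Has3 and Cd247 each overlap a coding gene and had under 1 FPKM in 2 libraries, so their values are uncertain. Transcripts of Eln, Hn1, Ntan1 and Fam198b each matched those of other genes over 100 bases at 90% identity, so their reads may be shared.

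The other secreted antagonists and the Kremen receptors were mostly unmeasured or scarce. Of 16 listed genes, 6 had an FPKM, and these did not include Sfrp4, Dkk1, Dkk2 or Notum. Of the 3 that passed the filter, 0 were apart in any comparison, too few to set against the shares of all genes given above. Igfbp4, an IGF-binding protein that also inhibits Wnt signalling, had 34.1 FPKM in the library labelled Egln1/Hif2aTie2Cre, 38.1 FPKM in the Egln1Tie2Cre library and 28.2 FPKM in the floxed library. Kremen1, a receptor for Dickkopf proteins, had 22.6, 32.0 and 27.4 FPKM in that order. Sfrp5, another Frizzled-related protein, stayed under 1 FPKM, at 0.411, 0.189 and 0.564 FPKM. Sost, which encodes sclerostin, an inhibitor that binds Lrp5 and Lrp6, was under 1 FPKM as well, at 0.337, 0.789 and 0.327 FPKM. As plain ratios of the Egln1Tie2Cre over the floxed library these were 2.98-fold lower for Sfrp5 and 2.42-fold higher for Sost, both below the filter.

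The receptor Fzd8, a Frizzled, had 1.67 FPKM in the library labelled Egln1/Hif2aTie2Cre, 0.760 FPKM in the Egln1Tie2Cre library and 2.67 FPKM in the floxed library, and was apart and lower in the Egln1Tie2Cre library than in the floxed library. This was 1 of 13 receptors kept in that comparison, a share near the 7.77% of all genes, with 0 higher and a list median log2 ratio of -0.15. In the other comparisons 0 of 14 receptors were apart, beside 8.38% and 0.976% of all genes, although Fzd8 was 2.19-fold higher as a plain ratio for the library labelled Egln1/Hif2aTie2Cre over Egln1Tie2Cre. The most abundant of the list were Mcam, an adhesion molecule that can act as a Wnt co-receptor, at 22.7, 34.8 and 18.3 FPKM, and Ryk, a Wnt-binding receptor, at 17.1, 23.9 and 16.4 FPKM in the same order. Both stood highest in the Egln1Tie2Cre library without being apart.

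Wnt ligands were scarce. Of 21 listed ligand and secretion genes 9 had an FPKM, and 0 of the 6 kept were apart in any comparison, beside the 8.38%, 0.976% and 7.77% of all genes. On plain FPKM ratios 1 of the 6 passed 2-fold in each comparison with the floxed library. The plain-ratio shares of all genes kept were 2.87% for the library labelled Egln1/Hif2aTie2Cre and 10.8% for the Egln1Tie2Cre library. Wnt5a, a ligand best known for signalling without beta-catenin, had 1.88 FPKM in the library labelled Egln1/Hif2aTie2Cre, 1.23 FPKM in the Egln1Tie2Cre library and 3.23 FPKM in the floxed library, 2.64-fold lower in the Egln1Tie2Cre library than in the floxed library (log2 ratio -0.93). Wnt11, another ligand of that kind, had 1.94 FPKM in the library labelled Egln1/Hif2aTie2Cre, 3.18 FPKM in the Egln1Tie2Cre library and 4.68 FPKM in the floxed library, 2.41-fold lower in the library labelled Egln1/Hif2aTie2Cre than in the floxed library (log2 ratio -0.95). Wls, the carrier that brings Wnt proteins to the cell surface, was the most abundant gene of the list at 16.0, 17.9 and 15.2 FPKM. The list medians over floxed were -0.21 in both the library labelled Egln1/Hif2aTie2Cre and the Egln1Tie2Cre library. Of the R-spondin, Lgr and receptor-turnover genes 5 of 10 had an FPKM. The filter kept 2 for the library labelled Egln1/Hif2aTie2Cre over Egln1Tie2Cre and 3 in each of the others. Among these 0 were apart, too few genes to set against the shares of all genes. Lgr6, a receptor for R-spondins, had 7.55, 6.09 and 9.93 FPKM, and Lgr4, a related receptor, had 6.04, 5.11 and 6.48 FPKM.

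All 17 listed cytoplasmic and nuclear genes of the pathway were kept, and 0 were apart in any comparison, beside the 8.38%, 0.976% and 7.77% of all genes. On plain FPKM ratios 1 of the 17 passed 2-fold in each comparison that uses the Egln1Tie2Cre library. The plain-ratio shares of all genes kept were 10.8% against the floxed library and 11.6% against the library labelled Egln1/Hif2aTie2Cre. Dvl2, a Dishevelled protein, was 2.02-fold higher in the Egln1Tie2Cre library than in the floxed library, at 3.31, 5.27 and 2.61 FPKM. Dvl2 overlaps a coding gene and its transcripts matched those of other genes, so its reads may be shared. Tcf7l1, a TCF/LEF factor, was 2.00-fold lower in the library labelled Egln1/Hif2aTie2Cre than in the Egln1Tie2Cre library, at 3.43, 6.86 and 4.84 FPKM. Of the 17 genes, 12 lay below the Egln1Tie2Cre level in the library labelled Egln1/Hif2aTie2Cre, with a list median of -0.21. Ctnnb1, which encodes beta-catenin, had 133 FPKM in the library labelled Egln1/Hif2aTie2Cre, 151 FPKM in the Egln1Tie2Cre library and 138 FPKM in the floxed library. Csnk1a1, a kinase that primes beta-catenin for degradation, had 71.8, 114 and 83.8 FPKM. Of the listed target genes 0 were apart in any comparison, beside the 8.38%, 0.976% and 7.77% of all genes. The target genes kept numbered 8 for the library labelled Egln1/Hif2aTie2Cre over Egln1Tie2Cre and 9 in each of the others. With so few kept, a count of 0 says little. On plain FPKM ratios 1 target gene passed, Cd44, a surface glycoprotein, beside 10.8% of all genes kept for Egln1Tie2Cre over floxed. It was 2.02-fold higher in the Egln1Tie2Cre library than in the floxed library (2.23, 3.76 and 1.86 FPKM). Axin2, a feedback inhibitor and widely used readout of beta-catenin activity, had 1.83, 2.27 and 1.22 FPKM, and Ccnd1, a cyclin, had 32.8, 19.5 and 28.8 FPKM. Dact3, which binds Dishevelled proteins, had 5.20, 4.74 and 6.78 FPKM. The list median over floxed was 0.10 in the library labelled Egln1/Hif2aTie2Cre and -0.08 in the Egln1Tie2Cre library.

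**Figure D3:**
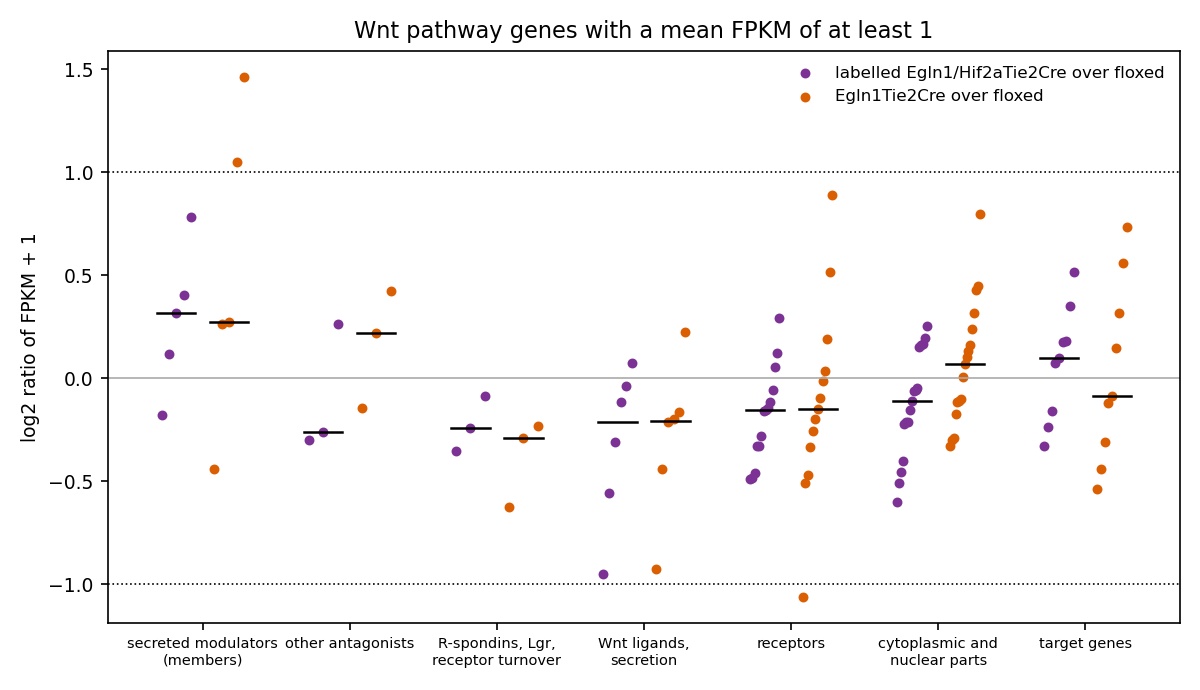
Log2 ratio of FPKM + 1 over the floxed library for Wnt pathway genes that passed the filter, in the library labelled Egln1/Hif2aTie2Cre (purple, left of each pair) and the Egln1Tie2Cre library (orange), with list medians as black lines and 2-fold as dotted lines. The points past 2-fold are Dkk3 (1.46), Frzb (1.05) and Fzd8 (-1.06), all in the Egln1Tie2Cre library.

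Some markers of several cell types stood highest in the same library as Dkk3 and Frzb, and others of the same lists did not. The marker lists were chosen with earlier results of these data known, so the shares of all genes beside them are given for scale alone. Over the floxed library, 5 of the 10 activated fibroblast genes kept were apart and higher in the Egln1Tie2Cre library, beside 3.93% of all genes, with 0 lower. They included Thbs4, a thrombospondin (1.75 FPKM in the library labelled Egln1/Hif2aTie2Cre, 9.44 FPKM in the Egln1Tie2Cre library, 1.27 FPKM in the floxed library), and Postn, periostin (24.1, 47.9 and 22.5 FPKM). Acta2, smooth muscle actin (90.6, 51.4 and 64.1 FPKM), Fap, a surface protease (2.55, 1.44 and 2.03 FPKM), and Fn1, fibronectin (8.16, 8.19 and 9.66 FPKM), lay below the floxed level there, and Meox1, a transcription factor, was highest in the library labelled Egln1/Hif2aTie2Cre (11.7, 9.91 and 5.40 FPKM). General fibroblast markers had 1 of 13 apart, a share near the 7.77% of all genes. It was Mfap5, a microfibril protein (24.0, 38.9 and 17.8 FPKM). The summed FPKM of the general fibroblast markers was 1143, 1141 and 988. Of the 14 genes summed, 5 were highest in the library labelled Egln1/Hif2aTie2Cre, 5 in the Egln1Tie2Cre library and 4 in the floxed library. The most abundant were Gsn, gelsolin (499.8, 570.1 and 452 FPKM), and Dcn, a proteoglycan (264, 238 and 197 FPKM). Divided by each library's total FPKM, the sum was highest in the Egln1Tie2Cre library, so the order of the libraries depends on the scaling.

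Atrial and epicardial lists were mixed as well. Of 9 atrial markers kept, 3 were apart and higher in the Egln1Tie2Cre library than in the floxed library (Nppa, Myl7 and Myl4). A further 1 was apart and lower, the potassium channel gene Kcnj3 (12.7, 8.02 and 18.7 FPKM). Over all genes kept, 7.77% were apart in that comparison and 3.93% were apart and higher. In all, 5 lay above and 4 below the floxed level. Sln, sarcolipin, was highest in the library labelled Egln1/Hif2aTie2Cre (16.4, 10.6 and 7.85 FPKM). The summed FPKM of 9 atrial markers was 388 in the library labelled Egln1/Hif2aTie2Cre, 2024 in the Egln1Tie2Cre library and 267 in the floxed library. Without Nppa, the natriuretic peptide that stressed ventricle also makes, the sums were 133, 166 and 107 FPKM. Myl7, the atrial regulatory light chain, had 41.4, 74.0 and 26.3 FPKM. The summed FPKM of 8 epicardial and mesothelial markers was 8.13, 35.1 and 5.92, carried by Krt19 (0.169, 13.7 and 0.218 FPKM), Wt1 (1.60, 10.2 and 2.25 FPKM) and Krt18 (0.204, 7.21 and 0.255 FPKM). Of these 8 markers 4 were highest in the library labelled Egln1/Hif2aTie2Cre, among them Aldh1a2 (3.93, 2.38 and 2.06 FPKM) and Tbx18 (1.31, 0.913 and 0.657 FPKM). Upk3b, a defining mesothelial gene, was at 0.538, 0.0429 and 0.122 FPKM, and Msln, Upk1b, Lrrn4, Bnc1 and Muc16 had no FPKM in the tables. The part of atrial, epicardial, endothelial or fibroblast cells in the Dkk3 and Frzb levels was not tested.

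**Figure D4:**
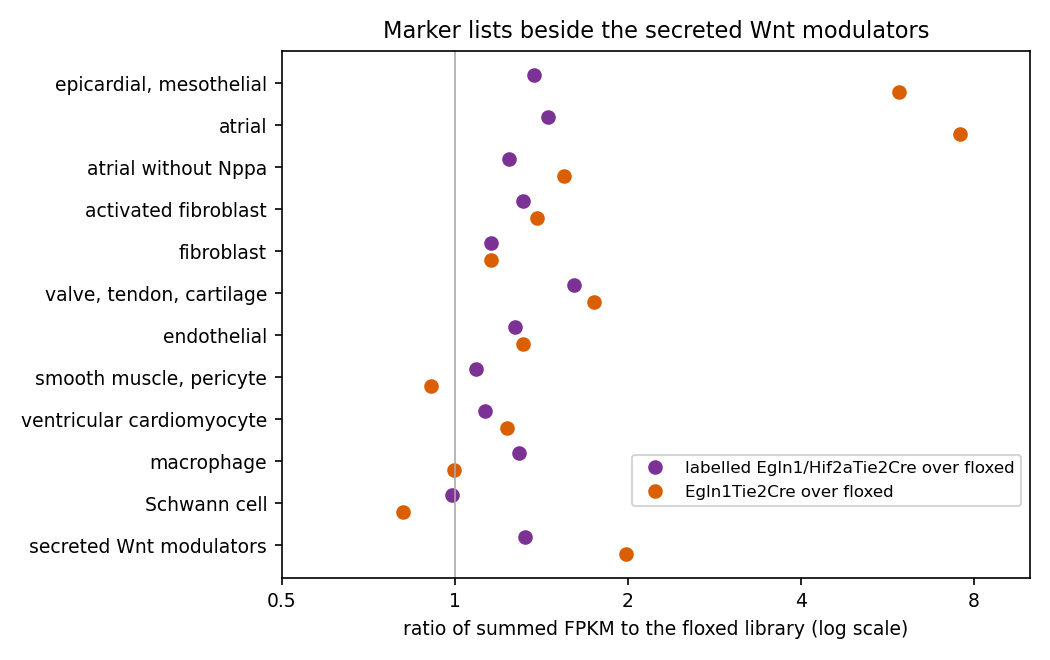
Ratio of the summed FPKM of each marker list to the floxed library (log scale) in the library labelled Egln1/Hif2aTie2Cre (purple, upper point of each row) and the Egln1Tie2Cre library (orange). Atrial and epicardial markers are furthest above 1 in the Egln1Tie2Cre library, the secreted Wnt modulators stand at 1.99, and the atrial list is led by Nppa.

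None of the remaining lists had a sum 2-fold apart between libraries. The summed FPKM of 10 endothelial markers was 470 in the library labelled Egln1/Hif2aTie2Cre, 484 in the Egln1Tie2Cre library and 369 in the floxed library. Vwf, von Willebrand factor, was the sole endothelial marker of 10 apart between the Egln1Tie2Cre and floxed libraries, beside 7.77% of all genes. It had 17.8, 89.2 and 20.4 FPKM, highest in the same library as Dkk3 and Frzb. Without Vwf the endothelial sums were 452, 395 and 348 FPKM. Emcn, endomucin, was apart and higher in the library labelled Egln1/Hif2aTie2Cre than in the floxed library, at 44.8, 21.9 and 21.4 FPKM. Smooth muscle and pericyte markers summed to 397, 331 and 365 FPKM, and macrophage markers to 79.9, 61.6 and 61.9 FPKM. Of the macrophage list Folr2, a folate receptor, was apart and lower in the Egln1Tie2Cre library than in both others, at 10.1, 3.72 and 9.27 FPKM. Folr2 was the sole one apart of the 7 macrophage markers kept against floxed, beside 7.77% of all genes. The same held against the library labelled Egln1/Hif2aTie2Cre, beside 8.38%, and all 7 were lower in the Egln1Tie2Cre library there. Against floxed 2 of the 7 lay above and 5 below. Tyrobp, the most abundant of the list, lay above, at 28.2, 23.1 and 13.99 FPKM. The 6 valve, tendon and cartilage genes with an FPKM in each library summed to 27.5, 29.8 and 17.0 FPKM. This class includes the tendon factor Scx (5.17, 5.81 and 2.91 FPKM). Its sum was higher in both Cre libraries than in the floxed library, as were Sfrp1 and Sfrp2 with Dkk3. That was not particular to this list. The activated fibroblast, fibroblast, endothelial, atrial, epicardial and cardiomyocyte sums of FPKM were also higher in both Cre libraries. For the library labelled Egln1/Hif2aTie2Cre this depended in part on the scaling. Divided by each library's total FPKM, its fibroblast and cardiomyocyte sums fell below those of the floxed library. Its atrial sum without Nppa was then nearly level with that of the floxed library. The other sums named here stayed higher in both Cre libraries. Schwann cell markers summed to 8.87, 7.30 and 8.98 FPKM.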

How the data were processed

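RNA of left ventricle was measured in 3 pooled libraries, 1 per genotype. The values in the deposited tables are FPKM, made by the authors with TopHat2 and Cuffdiff per the submitters' processing notes, with a fold ratio and a q-value per gene per the file headers. Versions, build, annotation and strand setting: not given in the sources used here. Columns were assigned through the titles that each table's name joins, and a library's values recurred in its 2 tables (14367 of 14367, 14489 of 14489 and 14368 of 14369 genes identical). FPKM keeps no counts, so depth and counting error are unknown.

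Log2 ratios used FPKM + 1, a minimum mean of 1 FPKM and a 2-fold limit (Python 3.11.15, pandas 2.3.3, numpy 2.4.6). Gene models came from GENCODE M21 (15293 of 15503 IDs found), copies from BLAST 2.17.0 and promoters from RefSeq. Besides the genes of nearest pattern, Dvl2, Scx, Ctnnb1, Ccnd1 and Myl2 each overlap a coding gene. Transcripts of Dvl2, Igfbp4, Kremen1, Wls, Fn1, Fap, Krt18 and Vwf matched those of other genes over 100 bases at 90% identity. Reads of these genes may thus be shared. The genes, gene lists and rules were chosen with earlier results of these data known. Named were all 5 genes, pathway genes that were apart or among the 2 most abundant of a list, up to 3 leading markers per list and the 3 nearest patterns. Sfrp5, Sost, Axin2, Wnt5a, Dvl2, Tcf7l1, Cd44, Thbs4, Fap, Fn1, Meox1, Mfap5, Myl4, Kcnj3, Sln, Krt18, Aldh1a2, Tbx18, Upk3b, Vwf, Emcn, Folr2 and Scx fall outside that rule and were named after their values were seen. No comparison had replicates, so none has a p-value.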

Additional observations from a re-analysis of the deposited data

How the results depend on the processing

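No paired analysis was possible because each genotype has 1 library, and for the same reason no replicate was left out. Under 8 other settings and 1 chosen after seeing the data (centring on genes of like transcript length), Dkk3 and Frzb stayed apart in the same direction in both comparisons with the Egln1Tie2Cre library wherever they were kept. A lower limit, another filter or a smaller pseudocount could not undo this for genes already past 2-fold. Only the settings that centre on a median or divide by library totals could have done so. Their log2 ratios ran from 1.43 to 1.78 (Dkk3) and 1.02 to 1.32 (Frzb) over floxed, and from -1.38 to -1.03 and -1.57 to -1.20 for the library labelled Egln1/Hif2aTie2Cre over Egln1Tie2Cre. At a mean FPKM of at least 5, 1 of the 5 genes (Dkk3) was kept and apart in each of these, and 0 were kept for the library labelled Egln1/Hif2aTie2Cre over floxed. In that last comparison Sfrp2 made the count 1 with a pseudocount of 0.1, with none and at 1.5-fold. Wif1 passed 2-fold for the library labelled Egln1/Hif2aTie2Cre over Egln1Tie2Cre with no pseudocount (1.02). Dividing by library totals shifted the median of all genes to -0.35 for the library labelled Egln1/Hif2aTie2Cre over Egln1Tie2Cre and to -0.26 over floxed. It turned the sign of Sfrp1 in the first pair (-0.26) and of Wif1 in the second (-0.067).

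Counts over all genes moved more. For the library labelled Egln1/Hif2aTie2Cre over Egln1Tie2Cre, 1006 genes were apart (517 higher, 489 lower), 2317 at 1.5-fold, and 610 (408 higher, 202 lower) without predicted, ribosomal, mitochondrial and pseudogene symbols and with the median then set to 0. Division by totals gave 352 higher and 911 lower. For that library over floxed, 116 genes were apart (64 higher, 52 lower), 306 with a pseudocount of 0.1, 341 with none, 65 at a mean FPKM of at least 5 and 915 at 1.5-fold. Division by totals gave 183 (32 higher, 151 lower), and leaving out those symbols with the median set to 0 gave 77. For Egln1Tie2Cre over floxed, 931 genes were apart (471 higher, 460 lower), 2179 at 1.5-fold and 549 (201 higher, 348 lower) without those symbols and with the median set to 0.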
